A study of Homo sapiens with 16 samples.

Results

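Aminoacyl-tRNA synthetases are the enzymes that load each tRNA with its amino acid. The genes described here are the 35 synthetases of human cells, chosen by name from a fixed list, with 19 enzymes of the cytosol and 16 of the mitochondrion. Of these, 31 had a row among the 18078 genes of the count table (17 cytosolic and 14 mitochondrial), and all 31 had enough reads to be tested. The counts of CARS1, VARS1, SARS2 and VARS2 were not analysed here.

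The cells of both groups were wild-type HL60, an established line from acute promyelocytic leukaemia. They had received 50 nM SY-351, a selective inhibitor of the kinase CDK7, or the solvent DMSO, in both cases for 5 h. Each group had 4 numbered replicates with 2 technical repeats each, which gave 4 SY-351 and 4 DMSO libraries of polyadenylated RNA. Nothing in the labels says that replicates came from separate cultures, so the p-values measure the spread between these libraries, which may be technical.

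Each synthetase charges 1 kind of tRNA, or a pair of kinds in the case of EPRS1, which joins glutamyl- and prolyl-tRNA synthetase in 1 protein. Symbols that end in 2 belong to the mitochondrial enzymes, which are encoded in the nucleus and imported. GARS1 and KARS1 each encode both the cytosolic and the mitochondrial enzyme. Several cytosolic enzymes sit in the multisynthetase complex on the scaffold proteins AIMP1, AIMP2 and EEF1E1. The transcription factor ATF4 activates many of the cytosolic genes when amino acids run short, through C/EBP-ATF response elements. CDK7 phosphorylates the C-terminal domain of RNA polymerase II as part of TFIIH.

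The libraries held 43266228 to 77891776 counts with SY-351 and 103676557 to 124242039 counts with DMSO. Levels are in CPM, a gene's counts scaled to a common library size, and 3 counts equalled 0.0241 to 0.0693 CPM. Reads were counted from the first to the last base of a gene, introns included. DMSO 1 and 2 stood apart. Across genes, the log2 CPM of these 2 libraries correlated with DMSO 3 and 4 at r = 0.762 to 0.793, against 0.987 between DMSO 1 and 2, 0.989 between DMSO 3 and 4, and 0.99 to 0.996 among the SY-351 libraries. The folds of the synthetases are therefore given with all 8 libraries and, for those described one by one, again without DMSO 1 and 2. Of the promyelocytic markers, MPO had 28300 to 32700 CPM with SY-351 and 12100 to 48100 CPM with DMSO, and CTSG and CD33 were also present (ELANE, PRTN3 and AZU1 were not analysed here). Of markers of other cell types, CD3E, GATA1, EPCAM and ALB each had at most 3.4 CPM in any SY-351 library and at most 2.69 CPM in any DMSO library.

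Sequence around the start sites is shown first, because the C/EBP-ATF response element is the best known control element of the cytosolic genes. Its core TGATGNAA was sought on both strands of a window from 250 bases before to 50 bases after each gene's start, taken from RefSeq on GRCh38.p14. A window was at hand for 30 of the 35 genes. The core was found in 7 of 16 cytosolic windows and in 1 of 14 mitochondrial ones, against 4.46% of all 27305 genes with a window. Each stretch below reads 5′ to 3′ on the gene's own strand, with the match in capitals.
MARS1, chr12:57488053-57488082, plus strand: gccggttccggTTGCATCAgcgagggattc
GARS1, chr7:30594834-30594863, plus strand: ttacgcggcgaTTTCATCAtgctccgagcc
AARS1, chr16:70289675-70289704, minus strand: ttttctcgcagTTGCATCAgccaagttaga
IARS1, chr9:92293692-92293721, minus strand: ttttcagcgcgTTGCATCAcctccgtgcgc
NARS1, chr18:57621804-57621833, minus strand: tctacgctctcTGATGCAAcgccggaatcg
TARS1, chr5:33440956-33440985, plus strand: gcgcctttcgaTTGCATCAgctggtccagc
CARS1, chr11:3057407-3057436, minus strand: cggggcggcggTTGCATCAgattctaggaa
YARS2, chr12:32756076-32756105, minus strand: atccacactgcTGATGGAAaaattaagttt

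In 5 of the cytosolic genes (MARS1, AARS1, IARS1, TARS1 and CARS1) the match is the same 8 bases, TTGCATCA, read on the gene's strand, and NARS1 carries them on the opposite strand. The matches of MARS1, IARS1, NARS1, TARS1 and CARS1 begin within 14 bases of the start, that of GARS1 33 bases before it, and those of AARS1 and YARS2 187 and 197 bases before it. A second motif, the E-box CACGTG, which does not overlap the first, was found in 1 of 16 cytosolic windows (IARS1) and in 3 of 14 mitochondrial ones (CARS2, EARS2 and MARS2), against 8.77% of all genes. A match describes these letters only, and says nothing of binding.
MARS2, chr2:197705347-197705374, plus strand: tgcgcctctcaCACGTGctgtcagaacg
EARS2, chr16:23557349-23557376, minus strand: agggagaagccCACGTGtgctattccat
CARS2, chr13:110706502-110706529, minus strand: gctgggatgcaCACGTGcttcgctaaca

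With all 8 libraries, 9 of the 31 synthetase mRNAs fell after SY-351 and 0 rose (edgeR quasi-likelihood test, Benjamini-Hochberg adjusted p below 0.05 over all 15472 genes tested). At an unadjusted p under 0.05 the count over both directions was 10, and DESeq2 called 1 cytosolic synthetase higher. The 9 were FARSA, GARS1 and MARS1 among 17 cytosolic genes, and AARS2, EARS2, HARS2, MARS2, PARS2 and YARS2 among 14 mitochondrial genes. In the same fit 13.6% of all genes were called lower and 2.91% higher. The cytosolic share called lower was 17.6% and the mitochondrial share 42.9%. The median log2 fold was 0.13 for the cytosolic genes, -0.73 for the mitochondrial genes and 0.00 for all genes tested. Without DMSO 1 and 2 the compartments lay closer, with 52.9% of cytosolic and 57.1% of mitochondrial genes called lower, against 26.4% of all genes. In RNA from whole cultures, fewer cells that make an mRNA and less of it per cell cannot be told apart.

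**Figure D1:**
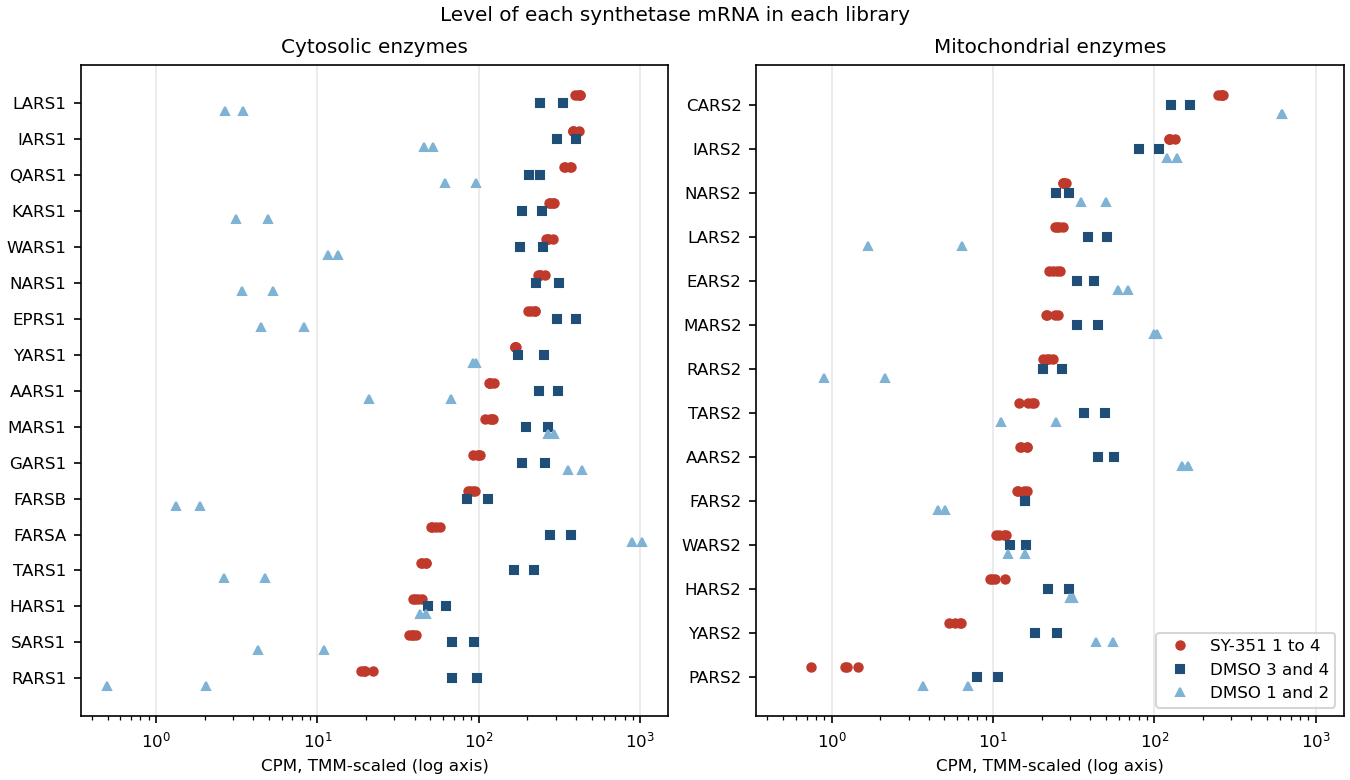
CPM (TMM-scaled, log axis) of the 17 cytosolic and 14 mitochondrial synthetase mRNAs, with 1 point per library in 3 rows per gene, SY-351 above DMSO 3 and 4 above DMSO 1 and 2. The 4 SY-351 points of a gene lie close together, while in many cytosolic genes, such as LARS1 and FARSB, DMSO 1 and 2 lie far below every other library.

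FARSA, the catalytic subunit of the cytosolic phenylalanyl-tRNA synthetase, gave the largest drop of the 31 with all 8 libraries. Its gene lies on chr19:12922478-12933711 (GRCh38, minus strand). The mRNA had 53.9, 57.2, 51.6 and 50.2 CPM in the 4 SY-351 libraries, against 1020, 887, 277 and 371 CPM in DMSO 1 to 4. Thus the groups did not overlap, and DMSO 1 and 2 were the highest. The log2 fold was -3.58 ± 0.51 (SE, adjusted p = 0.00572 by edgeR) with 8 libraries, and -2.58 ± 0.15 (adjusted p = 4.85e-61) against DMSO 3 and 4. FARSB, the other subunit of the same enzyme, did not pass in either fit, with log2 folds of 0.83 ± 1.21 (adjusted p = 0.661) and -0.12 ± 0.16 (adjusted p = 0.579). Its level was 94.3, 91.8, 88.0 and 85.2 CPM with SY-351, against 1.88, 1.32, 84.8 and 114 CPM in DMSO 1 to 4.

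GARS1, which charges glycine tRNAs in both compartments (chr7:30594734-30634032, plus strand), had 101, 99, 92.6 and 98.3 CPM with SY-351, against 358, 433, 186 and 257 CPM with DMSO 1 to 4. The groups did not overlap, and the log2 fold was -1.66 ± 0.34 (adjusted p = 0.0148 by edgeR). MARS1, the cytosolic methionine enzyme of the multisynthetase complex (chr12:57488067-57516652, plus strand), had 121, 118, 122 and 110 CPM with SY-351, against 267, 291, 195 and 267 CPM with DMSO. Here too every SY-351 library was below every DMSO library, with a log2 fold of -1.11 ± 0.26 (adjusted p = 0.0251). The counted span of MARS1 shares 758 bases with ARHGAP9 and 66 with DDIT3, both on the opposite strand. Leaving out 1 SY-351 library at a time ended the calls of GARS1 and MARS1, with adjusted p up to 0.075 and 0.109, and that of MARS1 also ended without DMSO 1 (adjusted p = 0.0583) or DMSO 2 (adjusted p = 0.055). Without DMSO 1 and 2 both passed, at log2 folds of -1.16 ± 0.15 (adjusted p = 4.93e-13) and -0.95 ± 0.16 (adjusted p = 4.96e-09).

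Among the mitochondrial enzymes, PARS2, which charges proline tRNA (chr1:54756897-54764523, minus strand), had the lowest level. It had 0.745, 1.21, 1.45 and 1.24 CPM with SY-351, against 7.04, 3.66, 7.98 and 10.7 CPM with DMSO 1 to 4. The groups did not overlap, and DMSO 2 was the lowest control. The log2 fold was -2.66 ± 0.42 (adjusted p = 0.00753 by edgeR) with 8 libraries and -2.99 ± 0.23 (adjusted p = 8.8e-38) against DMSO 3 and 4, the largest drop of the 31 members in that second fit.

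YARS2, the mitochondrial tyrosine enzyme (chr12:32746543-32755897, minus strand), had 6.36, 6.28, 5.33 and 5.84 CPM with SY-351, against 43.8, 55.3, 18.3 and 25.0 CPM with DMSO. AARS2, which charges alanine tRNA (chr6:44298730-44313347, minus strand), had 16.3, 16.3, 14.7 and 14.9 CPM with SY-351, against 161, 148, 44.9 and 56.3 CPM with DMSO. In both genes DMSO 1 and 2 were the highest libraries by TMM-scaled CPM, and no SY-351 library reached a DMSO library. For YARS2 that order depended on the scaling, as its raw counts were 3104, 3763, 3650 and 3532 in DMSO 1 to 4. YARS2 changed by a log2 fold of -2.58 ± 0.40 (adjusted p = 0.00711 by edgeR) with 8 libraries and -1.84 ± 0.17 without DMSO 1 and 2. For AARS2 the values were -2.72 ± 0.47 (adjusted p = 0.00922) and -1.68 ± 0.15, and its call was lost when SY-351 1 or SY-351 3 was left out (adjusted p up to 0.051). FARSA, PARS2 and YARS2 stayed past the threshold whichever single library was left out, with the largest adjusted p at 0.0407, 0.0459 and 0.0451.

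MARS2, the mitochondrial methionine enzyme (chr2:197705368-197708395, plus strand), had 25.2, 24.4, 21.7 and 21.4 CPM with SY-351, against 99.5, 104, 33.4 and 45.0 CPM with DMSO. EARS2, which charges glutamate tRNA (chr16:23520753-23557350, minus strand), had 25.9, 23.6, 24.8 and 22.1 CPM with SY-351, against 68.9, 59.5, 33.3 and 42.1 CPM with DMSO. Neither gene's groups overlapped, and DMSO 1 and 2 were the highest libraries in both. The log2 fold of MARS2 was -1.61 ± 0.41 (adjusted p = 0.0327 by edgeR) with 8 libraries and -0.74 ± 0.15 (adjusted p = 6.74e-06) without DMSO 1 and 2, and that of EARS2 was -1.08 ± 0.29 (adjusted p = 0.038) and -0.62 ± 0.16 (adjusted p = 0.000181). With 8 libraries both calls ended when any 1 SY-351 library, DMSO 1 or DMSO 2 was left out, with adjusted p up to 0.113 and 0.129. Limma-voom also ended both (adjusted p = 0.0561 for MARS2 and 0.0555 for EARS2), and no filter on low counts ended that of EARS2 (adjusted p = 0.0546).

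HARS1 and HARS2, the cytosolic and mitochondrial histidine enzymes, lie head to head on chromosome 5, with 83 bases between their counted spans. The stretch between both starts, 60.2% G and C, is shown on the strand of HARS2 (GRCh38.p14, RefSeq).
Between HARS1 and HARS2, chr5:140691371-140691453, plus strand: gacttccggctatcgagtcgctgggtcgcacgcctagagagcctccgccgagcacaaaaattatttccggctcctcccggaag

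HARS2 had 9.86, 10.3, 11.9 and 9.55 CPM with SY-351, against 30.2, 31.5, 21.8 and 29.7 CPM with DMSO 1 to 4. All 4 DMSO libraries lay above all SY-351 libraries, and the log2 fold was -1.44 ± 0.26 (adjusted p = 0.00975 by edgeR) with 8 libraries and -1.28 ± 0.16 (adjusted p = 5.7e-15) without DMSO 1 and 2. Leaving out any 1 SY-351 library took its 8-library call away (adjusted p up to 0.0606). HARS1 had 39.3, 44.6, 42.0 and 40.2 CPM with SY-351, against 47.0, 42.9, 48.3 and 62.3 CPM with DMSO. The HARS1 groups overlapped, with a log2 fold of -0.27 ± 0.23 (adjusted p = 0.442), and without DMSO 1 and 2 it was -0.39 ± 0.16 (adjusted p = 0.0297). That second call of HARS1 ended under 5 of 8 alternatives. Counted within each library, where no scaling enters, there were 3.52 to 4.32 HARS1 reads per HARS2 read with SY-351, against 1.36 to 2.21 with DMSO, without overlap.

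Without DMSO 1 and 2, more synthetases were called in both directions. Of the cytosolic genes 9 of 17 fell (AARS1, EPRS1, FARSA, GARS1, HARS1, MARS1, RARS1, SARS1 and TARS1) and 3 rose (KARS1, LARS1 and QARS1). Of the mitochondrial genes 8 of 14 fell (the 6 above with LARS2 and TARS2) and 2 rose (CARS2 and IARS2). Over all 15811 genes in that fit, 26.4% were called lower and 21.9% higher. The median log2 folds were -0.39 for the cytosolic genes, -0.68 for the mitochondrial genes and 0.01 for all genes. Set against DMSO 1 and 2 alone, 4 cytosolic genes were called lower and 13 higher, and 9 mitochondrial genes lower and 3 higher, against 38.4% lower and 40.8% higher over all genes. The 3 fits share the SY-351 libraries.

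**Figure D2:**
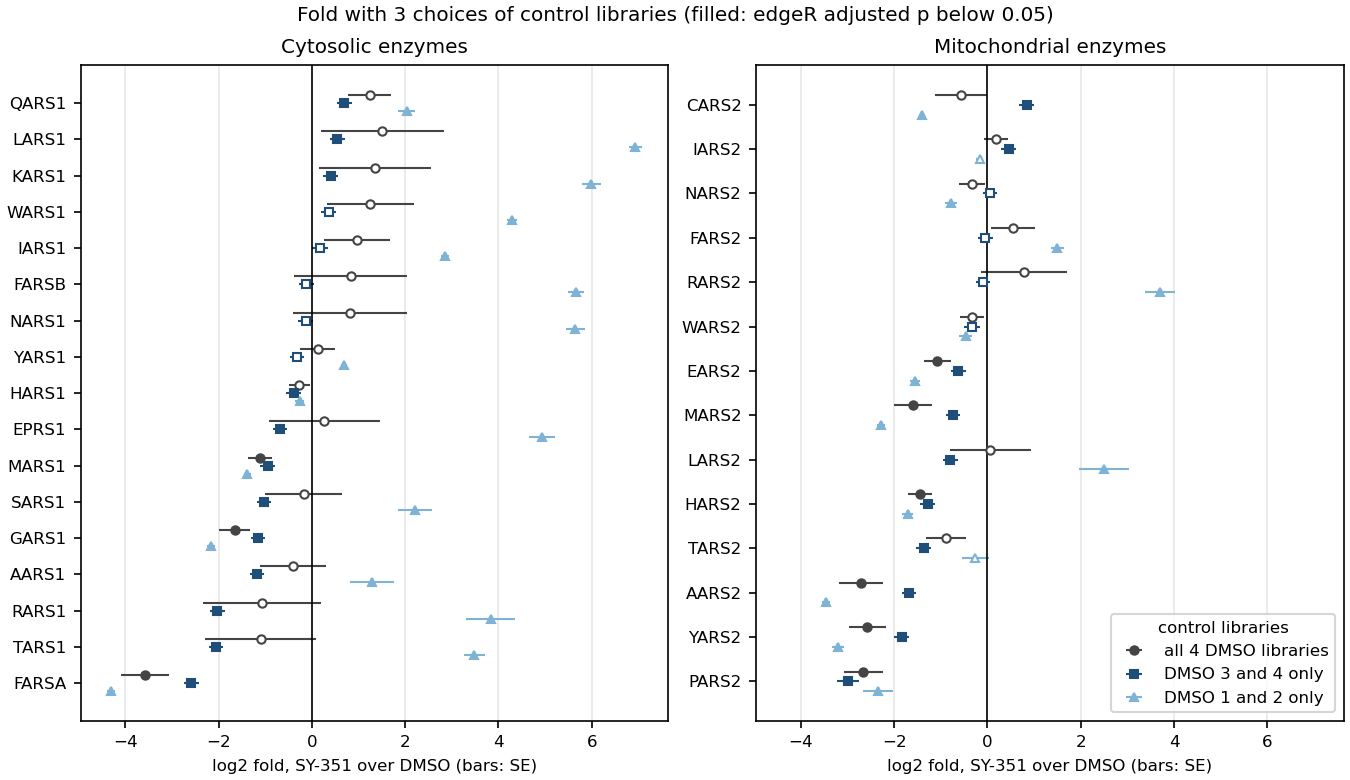
Log2 fold (SY-351 over DMSO, bars SE) of each synthetase with all 4 DMSO libraries, with DMSO 3 and 4 only and with DMSO 1 and 2 only, ordered by the second. FARSA, GARS1, MARS1 and the mitochondrial AARS2, EARS2, HARS2, MARS2, PARS2 and YARS2 lie left of 0 in all 3, while TARS1 and RARS1 lie on opposite sides of 0 with DMSO 3 and 4 and with DMSO 1 and 2.

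TARS1 and RARS1, the cytosolic threonine and arginine enzymes, changed most among the cytosolic genes called only without DMSO 1 and 2. TARS1 had 46.8, 44.1, 44.6 and 47.3 CPM with SY-351, against 4.73, 2.64, 165 and 219 CPM in DMSO 1 to 4. RARS1 had 19.8, 18.5, 22.1 and 19.5 CPM with SY-351, against 2.03, 0.499, 68.0 and 97.3 CPM. In both genes the SY-351 libraries lay between the 2 pairs of DMSO libraries, so that the direction depended on which pair was used. TARS1 changed by a log2 fold of -2.05 ± 0.15 (adjusted p = 1.42e-38 by edgeR) against DMSO 3 and 4 and 3.49 ± 0.23 against DMSO 1 and 2, and RARS1 by -2.03 ± 0.15 (adjusted p = 9.04e-38) and 3.83 ± 0.53. With all 8 libraries neither passed, with adjusted p = 0.548 for TARS1 and 0.587 for RARS1.

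AARS1, SARS1 and EPRS1 showed the same split. Their log2 folds without DMSO 1 and 2 were -1.18, -1.03 and -0.68, and set against DMSO 1 and 2 alone 1.29, 2.22 and 4.93. EPRS1, the largest of these in level, had 203 to 224 CPM with SY-351, against 8.31, 4.45, 304 and 398 CPM in DMSO 1 to 4. LARS2 and TARS2, the mitochondrial leucine and threonine enzymes, had log2 folds of -0.79 ± 0.16 and -1.37 ± 0.15 without DMSO 1 and 2, against 0.06 ± 0.86 and -0.89 ± 0.44 with all 8 libraries.

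LARS1, which charges leucine tRNA and is known as a leucine sensor for mTORC1, had the largest positive log2 fold of the 31 with all 8 libraries, 1.51 ± 1.32, and did not pass (adjusted p = 0.458 by edgeR). It had 425, 421, 392 and 411 CPM with SY-351, against 3.46, 2.66, 240 and 334 CPM in DMSO 1 to 4. All SY-351 libraries were above all DMSO libraries, and the mean of DMSO 3 and 4 was 93.9 times that of DMSO 1 and 2. Without DMSO 1 and 2 it rose, with a log2 fold of 0.54 ± 0.17 (adjusted p = 0.00267).

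QARS1, the glutamine enzyme of the complex, had 375, 367, 336 and 340 CPM with SY-351, against 95.8, 61.3, 205 and 240 CPM in DMSO 1 to 4. KARS1, the lysine enzyme of both compartments, had 294, 277, 271 and 288 CPM with SY-351, against 4.91, 3.13, 185 and 247 CPM. Again the groups did not overlap in either gene. QARS1 had log2 folds of 1.24 ± 0.46 (adjusted p = 0.104 by edgeR) with 8 libraries and 0.69 ± 0.17 (adjusted p = 9.54e-05) without DMSO 1 and 2. KARS1 had 1.36 ± 1.20 (adjusted p = 0.464) and 0.41 ± 0.16 (adjusted p = 0.0278), and total count scaling of the second fit turned it to -0.02.

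WARS1 was the fourth cytosolic gene with every SY-351 library above every DMSO library, at 262 to 290 CPM with SY-351 against 13.4, 11.7, 181 and 249 CPM in DMSO 1 to 4, and it passed in neither fit (adjusted p = 0.389 and 0.057 by edgeR). Counted this way, 4 of 17 cytosolic and 0 of 14 mitochondrial genes lay above all DMSO libraries, against 15.5% of all genes. This count depends on the TMM scaling. With total count scaling of the fit without DMSO 1 and 2, WARS1 and KARS1 turned to log2 folds of -0.064 and -0.018, while LARS1 and QARS1 did not reverse. Below all DMSO libraries lay 3 cytosolic and 7 mitochondrial genes, against 18.2% of all genes. The 3 cytosolic genes were those called lower, and the seventh mitochondrial gene was WARS2, at 10.4, 10.9, 11.7 and 12.1 CPM with SY-351 against 15.7, 12.4, 12.8 and 16.0 CPM, with adjusted p = 0.396.

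CARS2 and IARS2, the mitochondrial cysteine and isoleucine enzymes, had the highest CPM of the mitochondrial synthetases with SY-351. CARS2 had 265, 261, 258 and 248 CPM with SY-351, against 618, 616, 126 and 166 CPM in DMSO 1 to 4. Its SY-351 libraries lay between the 2 pairs of controls, in the reverse order of TARS1. The log2 fold was -0.57 ± 0.56 (adjusted p = 0.513 by edgeR) with all 8 libraries, 0.84 ± 0.17 (adjusted p = 1.48e-06) against DMSO 3 and 4 and -1.40 ± 0.06 against DMSO 1 and 2. IARS2 had 135, 125, 123 and 123 CPM with SY-351, against 119, 138, 80.2 and 107 CPM with DMSO. The IARS2 groups overlapped, with log2 folds of 0.19 ± 0.26 (adjusted p = 0.643) with 8 libraries and 0.46 ± 0.16 (adjusted p = 0.0118) without DMSO 1 and 2.

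RARS2, the mitochondrial arginine enzyme, had the largest positive log2 fold of its compartment with 8 libraries, 0.79 ± 0.92, and did not pass (adjusted p = 0.581 by edgeR). It had 21.5, 23.4, 20.3 and 22.2 CPM with SY-351, against 2.13, 0.896, 20.5 and 26.9 CPM in DMSO 1 to 4. The SY-351 values were within the range of DMSO 3 and 4 except for SY-351 3, just below it, and the log2 fold without DMSO 1 and 2 was -0.10 ± 0.16. The other genes that passed in neither fit were NARS1, YARS1, IARS1, FARS2 and NARS2, whose log2 folds without DMSO 1 and 2 ran from -0.32 for YARS1 to 0.17 for IARS1.

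Per kilobase of spliced transcript, the cytosolic genes had a median level of 40.5 CPM (9.31 to 141) with SY-351, against 75.9 CPM (22.6 to 179) in DMSO 3 and 4. The mitochondrial genes had a median of 6.07 CPM per kilobase (0.494 to 137) with SY-351, against 10.7 (3.98 to 77.8) in DMSO 3 and 4. KARS1, at 141 ± 5.05 CPM per kilobase (SD, n = 4), QARS1 at 125 ± 6.88 and CARS2 at 137 ± 3.97 were the highest in SY-351 libraries, and KARS1 and CARS2 did not differ beyond their spread. IARS2 followed CARS2 among the mitochondrial genes at 35.5 ± 1.6. The median cytosolic level was 6.67 times the mitochondrial one with SY-351. Introns were counted but are not in the spliced length, and the ranking depended on the length used. Per kilobase of the whole counted span, CARS2 had 3.99 CPM with SY-351, below MARS2 at 7.65, KARS1 at 14.1 and QARS1 at 40.2. By that length the median cytosolic level was 6.07 times the mitochondrial one.

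Within each library, the median cytosolic synthetase exceeded the median mitochondrial one by 2.67, 2.55, 2.78 and 2.64 on the log2 CPM scale with SY-351. In DMSO 1 to 4 the difference was -1.29, -1.77, 2.70 and 2.84. The SY-351 libraries thus lay near DMSO 3 and 4, while in DMSO 1 and 2 the mitochondrial median was the higher. The cytosolic genes held 0.315, 0.316, 0.308 and 0.297% of all counts with SY-351, against 0.136, 0.126, 0.506 and 0.511% in DMSO 1 to 4. The mitochondrial genes held 0.0582 to 0.0624% with SY-351, against 0.0810 to 0.0828% with DMSO. By this share the groups did not overlap, and the 4 DMSO libraries lay close together. That closeness holds for the sum only, since single genes differed in opposite directions. CARS2, with the most counts, had 43813 and 41963 in DMSO 1 and 2, against 25197 and 23440 in DMSO 3 and 4. RARS2 had 151 and 61, against 4083 and 3795.

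**Figure D3:**
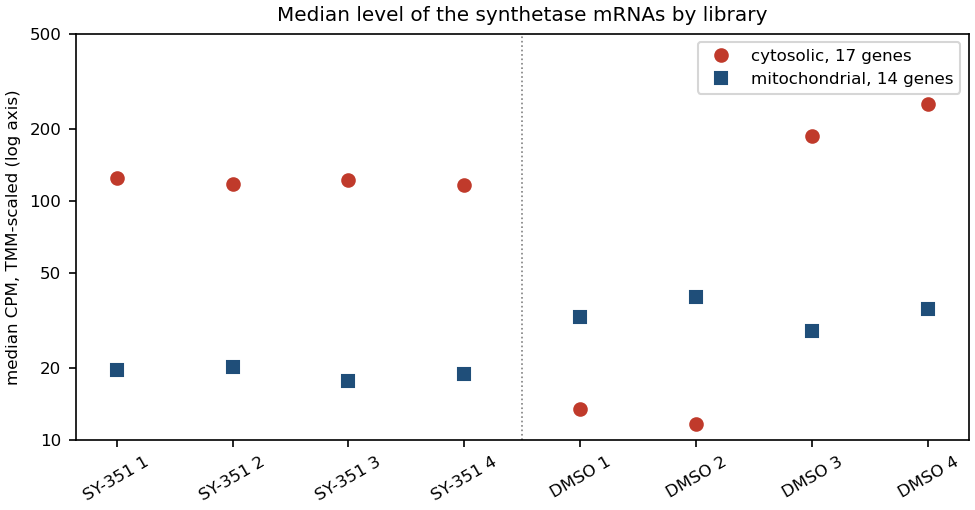
Median CPM (TMM-scaled, log axis) of the 17 cytosolic and 14 mitochondrial synthetase mRNAs in each library, SY-351 on the left. The cytosolic median is 117 to 125 CPM with SY-351 and splits into 13.4 and 11.7 CPM in DMSO 1 and 2 and 186 and 253 CPM in DMSO 3 and 4, while the mitochondrial median is 17.7 to 20.1 CPM with SY-351 and 28.5 to 39.7 CPM with DMSO.

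In 10 cases a cytosolic and a mitochondrial gene with the same symbol but for the final digit were both counted, and the ratio of their reads in a library needs no scaling. In 5 pairs (AARS, HARS, LARS, WARS and YARS) the ratio was above all DMSO libraries in every SY-351 library, and in 0 pairs below all of them. In all 10 pairs the mean ratio was lower in DMSO 1 and 2 than in DMSO 3 and 4. It was 1.46 against 2.15 for HARS and 0.11 against 9.99 for NARS. A ratio below every DMSO library was thus hardly possible, and the 0 says little about SY-351. No share over other gene pairs was worked out. The YARS1 to YARS2 ratio was 26.7, 26.8, 31.6 and 28.5 with SY-351, against 2.11, 1.75, 9.54 and 10.1 in DMSO 1 to 4. For LARS1 to LARS2 it was 15.2 to 16.8 with SY-351, against 0.535, 1.59, 6.18 and 6.57. Against DMSO 3 and 4 alone, the same 5 pairs had a higher ratio with SY-351, 4 had a lower one (IARS, MARS, RARS and TARS) and the NARS pair overlapped. The RARS1 to RARS2 ratio was the most changed of the 4, at 0.790 to 1.09 with SY-351 against 3.32 and 3.62 in DMSO 3 and 4, and 0.954 and 0.557 in DMSO 1 and 2. No common direction held across the 10 pairs.

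The difference between the DMSO libraries was itself uneven among the members. By TMM-scaled CPM, LARS1, RARS1, FARSB, NARS1, EPRS1, KARS1 and TARS1 were 52.2- to 93.9-fold lower in DMSO 1 and 2 than in DMSO 3 and 4, while CARS2, AARS2, FARSA, MARS2 and YARS2 were 2.29- to 4.22-fold higher. The TMM factors were 0.661 and 0.657 for DMSO 1 and 2 and 1.606 and 1.208 for DMSO 3 and 4. This scaling raises the first pair beside the second, so smaller folds of the second kind depend on it. Across the 17 cytosolic genes the log2 ratio of DMSO 1 and 2 over DMSO 3 and 4 went with the GC content of the transcript, with Pearson r = 0.831 and Spearman rho = 0.858. Over the 14 mitochondrial genes these were 0.216 and 0.248, and over 15114 of the 15472 tested genes 0.575 and 0.603. These are descriptions across genes that share the same 4 libraries. Transcript GC ran from 41.4% in RARS1 to 61.4% in FARSA. The part of GC content in this difference was not tested.

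**Figure D4:**
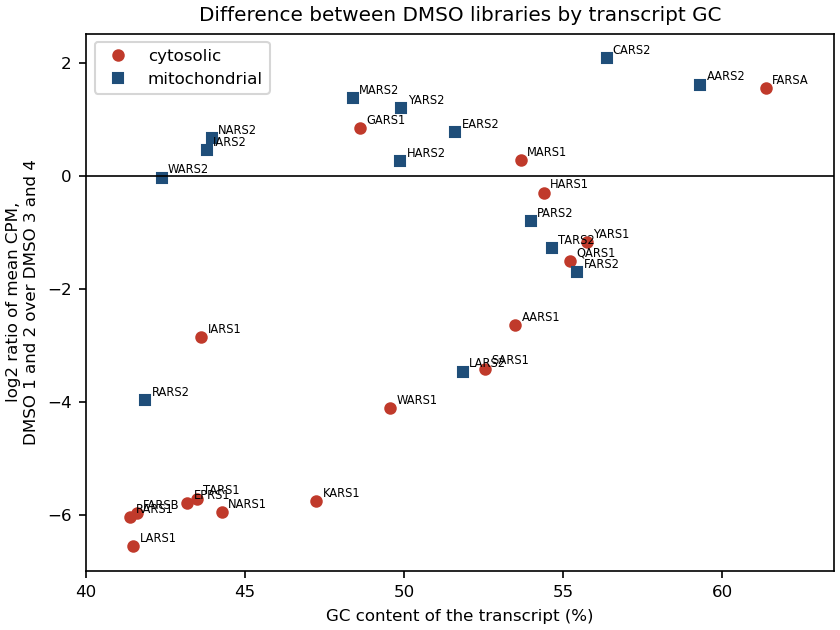
Log2 ratio of mean CPM (TMM-scaled), DMSO 1 and 2 over DMSO 3 and 4, against the GC content of the transcript for each synthetase. Cytosolic genes near 42 to 47% GC such as LARS1 and KARS1 lie near -6, while FARSA at 61.4% lies above 0, as do 8 of the 14 mitochondrial genes.

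Grouped by fold of the catalytic domain, class II enzymes were called lower in 5 of 15 and class I enzymes in 4 of 15 with 8 libraries. Without DMSO 1 and 2, class II had 10 lower and 1 higher (median log2 fold -1.16) and class I had 6 lower and 4 higher (median -0.32), against the 26.4% and 21.9% given above. The 7 enzymes of the multisynthetase complex had 3 lower (EPRS1, MARS1 and RARS1), 3 higher (KARS1, LARS1 and QARS1) and 1 that did not pass, IARS1. The 10 cytosolic enzymes outside the complex had 6 lower and 0 higher. With 8 libraries the counts were 1 of 7 and 2 of 10, all lower. The differences between these groups were not tested.

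Of the 11 counted cytosolic genes that are known ATF4 targets, 2 fell with 8 libraries (GARS1 and MARS1), and without DMSO 1 and 2 6 fell and 1 rose. The 2 of 11 are 18.2%, near the 13.6% of all genes called lower in that fit, while without DMSO 1 and 2 the shares over all genes were 26.4% lower and 21.9% higher. Of the 6 other cytosolic genes, 1 fell with 8 libraries, and 3 fell and 2 rose without DMSO 1 and 2. By sequence, 6 counted cytosolic genes carried the TGATGNAA core shown above. Of these 2 fell with 8 libraries, and 4 fell and 0 rose without DMSO 1 and 2 (AARS1, GARS1, MARS1 and TARS1, median log2 fold of the 6 -1.05). IARS1 and NARS1, which carry the same core, did not pass in either fit. The 9 cytosolic genes whose window held no match had 1 lower with 8 libraries, and 5 lower and 2 higher without DMSO 1 and 2, at a median of -0.39.

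Genes of the ATF4 pathway outside the synthetases included the most changed of the related genes. CHAC1, which degrades glutathione, had 0.454, 0.387, 0.731 and 0.946 CPM with SY-351, against 104, 102, 12.1 and 17.5 CPM in DMSO 1 to 4, a log2 fold of -6.55 ± 0.92 (adjusted p = 0.00562 by edgeR) with 8 libraries and -4.58 ± 0.22 without DMSO 1 and 2. TRIB3, a pseudokinase that restrains ATF4 itself, had 6.93 to 9.04 CPM with SY-351, against 579, 601, 78.5 and 107 CPM, a log2 fold of -5.44 ± 0.81 (adjusted p = 0.00649) with 8 libraries and -3.53 ± 0.16 without DMSO 1 and 2. In both genes the groups were far apart with either pair of controls. ATF4 did not pass with 8 libraries (log2 fold -1.46 ± 0.47, adjusted p = 0.0696) and fell without DMSO 1 and 2 (-0.50 ± 0.16, adjusted p = 0.00407). With 8 libraries 2 of 9 listed pathway genes fell, against 13.6% of all genes, and without DMSO 1 and 2 5 of 9 fell (ATF4, CHAC1, DDIT3, MTHFD2 and TRIB3) and 0 rose, against 26.4% and 21.9% of all genes. ASNS, asparagine synthetase, had log2 folds of 0.34 ± 0.42 (adjusted p = 0.608) and -0.19 ± 0.16 (adjusted p = 0.354).

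The proteins that work with synthetases were counted in the same way, with the same shares over all genes. Of the 3 scaffold genes of the complex, AIMP2 fell, with 14.4, 13.9, 12 and 11.6 CPM with SY-351 against 73.0, 62.5, 35.5 and 46.6 CPM with DMSO and a log2 fold of -2.07 ± 0.30 (adjusted p = 0.00585 by edgeR), or -1.64 ± 0.15 without DMSO 1 and 2. EEF1E1 passed only without DMSO 1 and 2 (log2 fold -0.37 ± 0.16, adjusted p = 0.0435), and AIMP1 in neither fit. Of 4 partners of mitochondrial charging, MTFMT, which formylates the initiator tRNA, fell with 8 libraries (log2 fold -2.13 ± 0.45, adjusted p = 0.0179) and without DMSO 1 and 2 (-1.20 ± 0.20), and QRSL1, a subunit of the amidotransferase that makes glutaminyl-tRNA, fell only without DMSO 1 and 2 (-1.04 ± 0.15, adjusted p = 7.54e-11).

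In the selenocysteine route, SEPHS2, which makes the selenium donor, fell (log2 fold -2.80 ± 0.47, adjusted p = 0.00867 by edgeR, and -1.80 ± 0.16 without DMSO 1 and 2), 1 of 4 genes, and PSTK joined it without DMSO 1 and 2. Of 10 counted genes of tRNA maturation and export, the tRNA 3′ endonucleases ELAC1 and ELAC2 and the splicing endonuclease subunit TSEN54 fell with 8 libraries and 0 rose. Without DMSO 1 and 2, 5 fell (RTCB, the tRNA ligase, and TRMT10C were the others) and 3 rose (HSD17B10, PRORP and the tRNA exporter XPOT). The subunits of mitochondrial RNase P thus went in different directions. HSD17B10 and PRORP had log2 folds of 0.84 and 0.64, while TRMT10C, a further subunit, had -1.86. DTD1 and DTD2, which remove wrongly attached amino acids from tRNA, passed in neither fit. AARSD1 had 0 counts in every library.

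The authors' deposited splicing table compares SY-351 with control cells for the use of alternative junctions and holds 9 of the 35 synthetases in 10 variations. A junction's inclusion is its share among the junctions of 1 variation. A gene was called where 1 of its junctions had a posterior probability of at least 0.95 for a difference of 0.2 or more, and an expected difference of at least 0.1. By that rule 3 of 9 synthetases were called (IARS1, LARS1 and YARS1, all cytosolic), which is 33.3%, against 64.2% of the 3700 genes in the table. None of the 4 mitochondrial genes in it (HARS2, RARS2, TARS2 and VARS2) was called.

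In IARS1, the isoleucine enzyme, the authors' deposited table gives a de novo junction, one not in the annotation, at an inclusion of 0.868 with SY-351 against 0.010 in control cells, an expected difference of 0.86. A second de novo junction had 0.125 with SY-351 against 0.917 in control cells, a difference of -0.81. Within this variation the use of both had thus exchanged almost fully. All its junctions were de novo, so inclusion here is a share among junctions outside the annotation and not a share of the whole mRNA. The mRNA had 417, 383, 385 and 384 CPM with SY-351 against 52.1, 46.0, 304 and 403 CPM in DMSO 1 to 4 and passed in neither fit (adjusted p = 0.383 and 0.422 by edgeR).

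In YARS1, the tyrosine enzyme, the annotated junction had an inclusion of 0.329 with SY-351 against 0.981 in control cells in the authors' deposited table, a difference of -0.66. A de novo junction had 0.517 with SY-351 against 0.003, and a further one 0.154 against 0.003, the last at a probability of 0.0194. The mRNA had 170, 168, 168 and 167 CPM with SY-351, against 92.5, 96.5, 175 and 253 CPM in DMSO 1 to 4, with adjusted p = 0.835 with 8 libraries and 0.0783 without DMSO 1 and 2 by edgeR. Its counted span shares 592 bases with S100PBP on the opposite strand.

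For LARS1 the authors' deposited table gives the annotated junction at 0.664 with SY-351 against 0.952 in control cells (difference -0.30, probability 0.996) and a de novo junction at 0.281 against 0.026 (difference 0.26, probability 0.964). The 6 uncalled genes had smaller differences. Their largest probability was 0.877, for an annotated junction of RARS2 at 0.463 with SY-351 against 0.721 in control cells. In all 10 synthetase variations of the authors' deposited table, the junction used most in control cells had a lower inclusion with SY-351, as it had in 89.4% of the 6716 variations of the whole table. Every variation there holds a difference of at least 0.117, and a junction picked as the highest in control cells often has little room to rise. The direction was thus largely set by that choice and says little about SY-351. Inclusion has no values per sample, and which libraries stood behind the control column is not given in the sources used here.

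**Figure D5:**
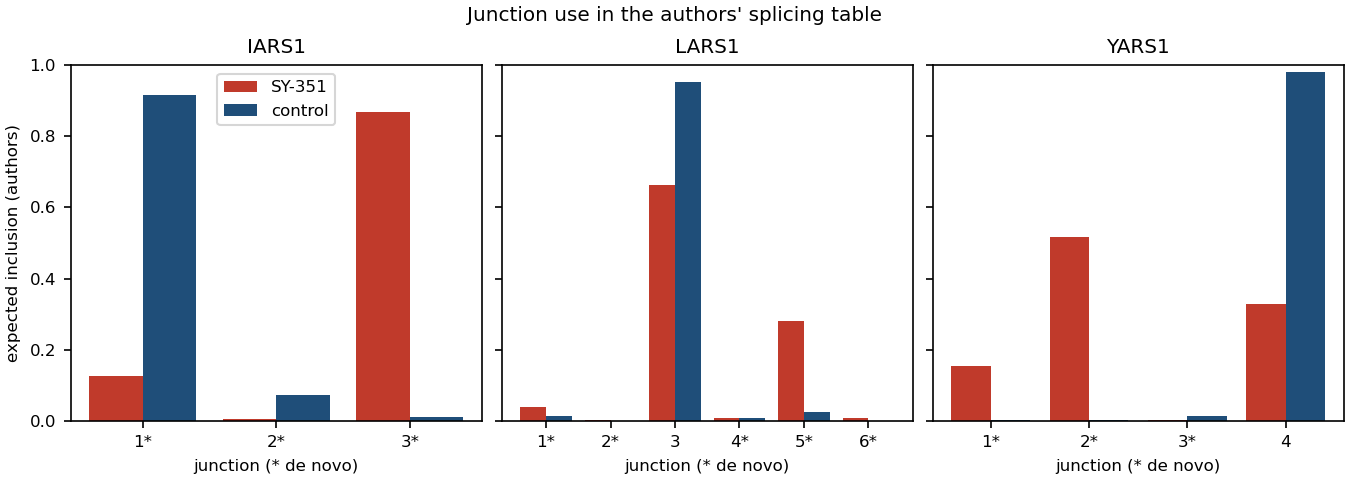
Expected inclusion (0 to 1, from the authors' deposited table, 1 value per group) of each junction in the variations of IARS1, LARS1 and YARS1, SY-351 left of control, with de novo junctions starred. In IARS1 use passes between 2 de novo junctions, and in YARS1 and LARS1 the annotated junction is lower with SY-351 (0.329 against 0.981 and 0.664 against 0.952).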

How the data were processed

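Polyadenylated RNA of HL60 cells was sequenced, per the labels' protocols. The deposited whole-number counts were made by the authors with featureCounts 1.6.2 (strand setting 1, each RefSeq transcript as 1 interval with its introns), per the file headers, and the build is GRCh38, as the submitters' processing notes give it beside DESeq2. The interval length, the other value used per gene, is as the authors deposited it. How technical repeats entered a column, and whether the kit kept strand, is not given in the sources used here. Splicing scores (expected inclusion, its difference and its posterior probability) are the authors' own comparison, per the file headers; their difference, control minus SY-351, was turned to SY-351 minus control, and matched the 2 inclusion columns in sign in 100% of the junctions where these were 0.05 or more apart. No splicing coordinates are printed, since that table uses another build.

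RefSeq identifiers were matched to symbols (17867 rows by a RefSeq table, 134 by GENCODE v29, 92 not matched). Of rows with a common symbol, that with more counts stayed in (15 set aside). The counts went into edgeR 4.0.16 under R 4.3.3 (TMM, filterByExpr, robust glmQLFit, glmQLFTest, two-sided, Benjamini-Hochberg, 0.05) with group as the only term. SE is the log2 fold over the root of F, and CPM carry the TMM factors of all 8 libraries. The TMM factor of DMSO 3 was 1.33 times that of DMSO 4, which lowers every CPM of DMSO 3 by that much. The factors of DMSO 1 and 2 were 0.661 and 0.657, against 1.606 and 1.208 for DMSO 3 and 4, which raises every CPM of DMSO 1 and 2 beside these. Level per kilobase divides CPM by the longest GENCODE transcript linked to the counted identifier, although the counts include introns. No technical repeat is a replicate, and no 2 libraries agreed within sampling noise.

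The members and lists were chosen with earlier results of these data known, so no list was tested as a set. Values in every library are printed for members past the threshold with 8 libraries, the 2 highest levels per kilobase and the largest fold in each direction of each compartment, members called in the splicing table, HARS1 and HARS2. FARSB, WARS1, WARS2, TARS1, RARS1, EPRS1, CHAC1, TRIB3 and AIMP2 were added after their values were seen. Same-numbered libraries did not deviate together (r = -0.165 to 0.007). The split between the DMSO libraries could hide a shared deviation, so this cannot decide whether numbers pair samples. The pipeline was tested on simulated data. Made with the 8-library spread (15319 genes), it found 0% of 2-fold and 0% of 4-fold changes. Made with the spread left without DMSO 1 and 2 (15642 genes), it found 69% and 87.9%, and called 5 unchanged genes. Alternatives were DESeq2 1.42.0, limma-voom (limma 3.58.1), other scalings, no filter, a replicate block and leaving out libraries. Of the cell type markers, 1 of another cell type is not reported here.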

Additional observations from a re-analysis of the deposited data

Results flagged for a closer look

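Of 62 groups of 4 libraries examined (31 genes, SY-351 and DMSO), 3 held 1 library far from the other 3. The cut-off is one that chance passes in 1 in 20 groups. The genes share the same libraries, and the DMSO libraries often lay in pairs, so the count cannot be set against that rate. All 3 were SY-351 1. AARS1 had 125 CPM there, while SY-351 2 to 4 lay at 116 to 117 CPM. IARS1 had 417 CPM, while the rest lay at 383 to 385 CPM. WARS1 had 290 CPM, while the rest lay at 262 to 267 CPM. In each gene the gap was small beside the difference between DMSO libraries.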

How the results depend on the processing

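Depth was high, and the spread between DMSO libraries limited the 8-library fit. Of its 9 calls, those of FARSA, PARS2 and YARS2 were lost under the replicate block alone. In the fit without DMSO 1 and 2, the calls of HARS1, KARS1 and IARS2 were lost under some of 8 alternatives, and the other 19 held under all 8. The replicate block called 0 genes lower and 0 higher, 0 cytosolic and 0 mitochondrial synthetases among them. Whether the numbers pair the samples could not be decided. The causes of the changes below were not tested.

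Over all genes, the 2100 calls lower became 3484 with DESeq2, 4172 without DMSO 1 and 2, 5996 with DMSO 1 and 2 only and 473 to 3438 with each library left out, the highest without DMSO 3. The 450 calls higher became 215 with total count scaling, 1064 with DESeq2, 3466 without DMSO 1 and 2, 6372 with DMSO 1 and 2 only and 61 to 1885 with each library left out. Cytosolic calls lower were 9 without DMSO 1 and 2 and 1 to 3 with each library left out (1 without any SY-351 library). Cytosolic calls higher were 1 with DESeq2, 3 without DMSO 1 and 2 and 13 with DMSO 1 and 2 only. Mitochondrial calls lower were 4 with limma-voom, 5 with no filter and 2 to 6 with each library left out (2 or 3 without any SY-351 library), and calls higher 2 without DMSO 1 and 2 and 3 with DMSO 1 and 2 only. The cytosolic median log2 fold was 2.86 with DMSO 1 and 2 only. The mitochondrial median was -0.89 with DESeq2 size factors, -0.88 with DESeq2, -0.53 with limma-voom, -0.52 with the replicate block and -1.09 with DMSO 1 and 2 only. The cytosolic minus mitochondrial difference, SY-351 minus DMSO, was 2.04 with 8 libraries, reversed to -0.11 without DMSO 1 and 2, and was 4.19 with DMSO 1 and 2 only. The median of all genes moved by -0.11 (DESeq2 size factors), -0.13 (DESeq2), 0.23 (limma-voom), 0.23 (replicate block) and 0.19 (DMSO 1 and 2 only).

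Members that reversed had no call with 8 libraries. AARS1, RARS1, SARS1 and TARS1 were 0.33, 0.82, 0.59 and 0.60 with limma-voom, 0.19, 1.02, 0.70 and 0.79 with the replicate block, and 1.29, 3.83, 2.22 and 3.49 with DMSO 1 and 2 only, where IARS2 was -0.17. Total count scaling gave EPRS1 -0.12, YARS1 -0.015 and LARS2 -0.28. Without DMSO 1 and 2, EPRS1 was -0.68, FARSB -0.12, NARS1 -0.14, YARS1 -0.32, CARS2 0.84, FARS2 -0.043, LARS2 -0.79, NARS2 0.054 and RARS2 -0.10. With each library left out, AARS1 ran from -0.78 to 0.16, EPRS1 from -0.14 to 1.05, SARS1 from -0.56 to 0.52, YARS1 from -0.055 to 0.50 and LARS2 from -0.33 to 0.72.

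Within the fit without DMSO 1 and 2, total count scaling gave 6848 genes lower, 2065 higher and 1 mitochondrial call higher, moved the median of all genes by -0.46 and the mitochondrial median to -1.10, and turned IARS1 to -0.25, KARS1 to -0.018, WARS1 to -0.064 and NARS2 to -0.38. These alternatives were chosen after the data were seen. Leaving out 1 further library gave 2 to 5 cytosolic and 1 to 3 mitochondrial calls higher, the most without DMSO 4, and a mitochondrial median of -0.87 to -0.45, with reversals of FARSB (-0.33 to 0.13), NARS1 (-0.36 to 0.15), RARS2 (-0.29 to 0.14), IARS1 (-0.028 to 0.42) and NARS2 (-0.085 to 0.22).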
